A study of Mus musculus with 54 samples.

Results

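Chromatin of mouse cardiac precursors (CP) was described by the combinations of 4 histone marks and RNA polymerase II found at the same places of the genome. The members were all lists of enriched regions labelled CP, from 12 ChIP-seq libraries. They held 409569 regions on chromosomes 1 to 19 and X, which is 25.7% of the 1590704 regions in the 46 lists of the series. The study differentiated embryonic stem cells of the 129/Ola strain toward heart muscle and sampled the cells on the way. CP cultures were collected at differentiation day 5.3. Embryoid bodies had been dissociated and reaggregated with VEGF, Activin A and BMP4, then dissociated again and plated in medium with VEGF, basic FGF and FGF10. All 12 libraries share strain, day and culture protocol, and no sorting of CP cells is given in the sources used here. Each list may therefore mix several cell types, and fewer cells carrying a mark cannot be told apart from less of the mark per cell. The lists were not matched to genes here, so the cell type label was not checked against marker genes.

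Each target marks a different step of gene control. H3K4me3 lies over the starts of genes that are active or held ready. H3K4me1 marks enhancers, the distant switches of genes, and the flanks of promoters. H3K27ac is added to the same residue that H3K27me3 occupies, so both cannot sit on the same histone tail; acetylation accompanies active enhancers and promoters, while H3K27me3 is laid down by Polycomb complexes at silenced genes. RNA polymerase II phosphorylated at serine 5 of its tail, here called Ser5P, is the form found where transcription begins. Promoters that carry H3K4me3 and H3K27me3 together are called bivalent and are common at developmental genes of stem cells and early precursors.

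H3K4me1 and H3K27me3 were profiled in 3 libraries each, and the other targets in 2 each. The number of regions was 82089, 63165 and 31571 for H3K4me1 replicates 1, 2 and 3, and 38392, 15331 and 13477 for H3K27me3 replicates 1, 2 and 3. It was 37824 and 27445 for H3K27ac, 27732 and 21264 for H3K4me3, and 28638 and 22641 for Ser5P. The first replicate of every target had the longest list. Sequencing depth is not given in the lists. The highest points of the regions ran from 13 to 400 in the authors' units, and the lowest value of a list differed between libraries from 13 to 38, so peak heights were compared only as percentile ranks within a list (0 lowest, 100 highest).

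Regions of all 12 lists were joined wherever they shared at least 1 base, which gave 150272 places. A mark was assigned to a place when every CP library of the mark had a region there. Where libraries are left out below, every remaining library of the mark had to have one, so fewer calls were needed. H3K4me1 was assigned to 17030 places (11.3% of all 150272), H3K27ac to 17826 (11.9%), H3K4me3 to 17781 (11.8%), H3K27me3 to 5118 (3.41%) and Ser5P to 11129 (7.41%). Of the places with any region of a mark, the share called in every library was 76.0% for H3K4me3, 51.5% for H3K27ac, 34.7% for Ser5P, 18.5% for H3K4me1 and 14.1% for H3K27me3. For H3K4me1, 16365 further places lacked the call in replicate 3 only, and for H3K27me3 4517 did. At least 1 mark was assigned to 37855 places (25.2%; 65776 without replicate 2), with a median length of 1750 bases and 89.4 Mb in all. The remaining 112417 places (74.8%) held regions of some libraries but of no complete set, and had a median length of 200 bases.

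The lists resembled each other by mark. The Jaccard index, the bases shared by 2 lists divided by the bases covered by either, averaged 0.445 between libraries of the same mark and 0.0994 between libraries of different marks. The difference of 0.346 had p = 7.22e-06 in a one-sided exact permutation test of the mark labels over the 12 libraries, the smallest value that the 138600 arrangements allow. Within marks the mean index was 0.691 for H3K4me3, 0.547 for H3K27ac, 0.441 for H3K27me3, 0.418 for Ser5P and 0.342 for H3K4me1. These libraries are labelled as biological replicates without a statement of separate cultures, so the p-values refer to these libraries and not to a wider set of cultures. The label test checks only whether lists of 1 mark resemble each other, not the combinations described below.

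Of the 31 possible combinations, 28 occurred, and 13 of them each held at least 1% of the marked places. These 13 frequent combinations, 5 of a lone mark and 8 of several marks, took in 36408 places (96.2% of the marked places). The other 15 shared 1447 places. A lone mark was found at 19771 places (52.2%), while 18084 (47.8%) carried 2 or more marks and 149 carried all 5. A mark is called lone or alone when no other mark was assigned, and regions of other marks may be present in some libraries. Counting a mark from any library, these 19771 places had 1.64 marks on average. Of the 2992 places of H3K4me3 alone, 15.8% had no region of another mark in any library. The median length of a place was 1125 bases with 1 mark, 2200 with 2, 2450 with 3, 3275 with 4 and 6850 with 5. A place is the union of the regions in it, so its length grows with the regions of each further mark. The part this plays in these lengths was not tested.

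**Figure D1:**
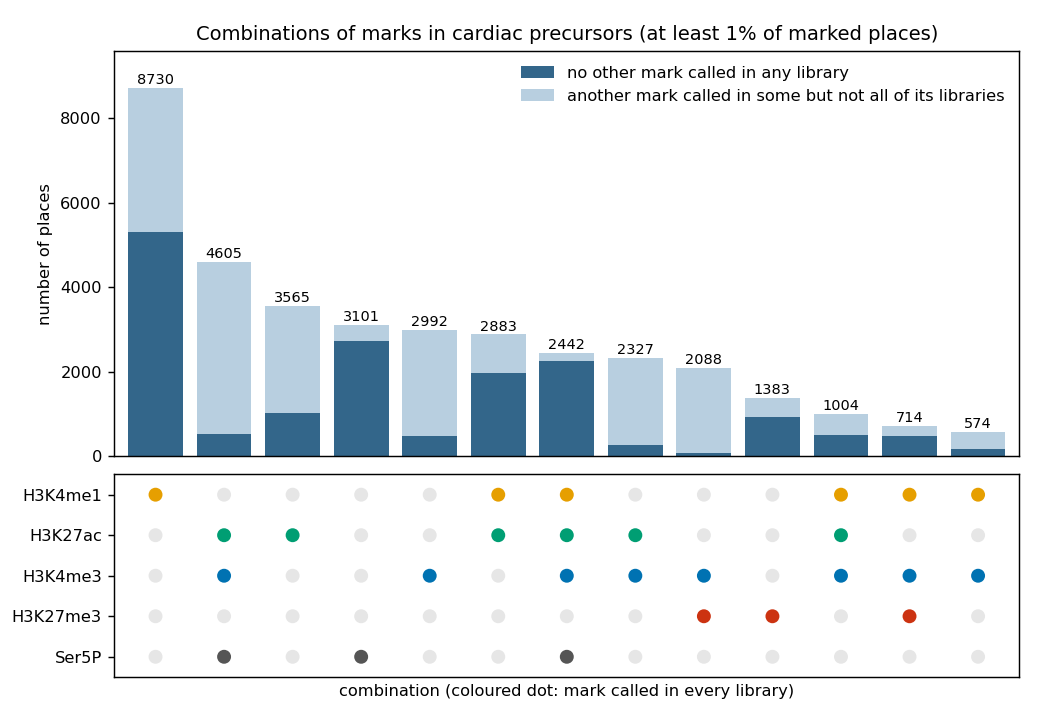
Number of places (vertical axis) of the 13 frequent combinations in cardiac precursors, with coloured dots below each bar showing its marks; the dark part of a bar counts places without a region of any other mark in any library, and the light part places with another mark in some but not all of its libraries. H3K4me1 alone was the most frequent combination (8730 places, 5314 of them in the dark part).

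Places with H3K27ac, H3K4me3 and Ser5P are called active promoter places or active promoters below, by their marks alone and without a match to genes. The combination typical of active promoters, H3K27ac with H3K4me3 and Ser5P, was found at 7047 places (18.6% of the marked places) with or without H3K4me1. It held at 8127 places in the replicate 1 libraries alone and at 7066 in the replicate 2 libraries alone, so this count changed little with the library. The split by H3K4me1 did change. The form without H3K4me1 had 4605 places of median length 2175 bases, and the form with H3K4me1 had 2442 places of median length 3125 bases. With the replicate 1 libraries alone the form without H3K4me1 had 2665 places and the form with it 5462, with the replicate 2 libraries alone they had 1253 and 5813, and with replicate 3 left out 2951 and 3883, so the order of the forms turned round. Most of the 4605 places without the H3K4me1 assignment were not free of it, since 88.4% had H3K4me1 in at least 1 library (replicate 1 at 49.2%, replicate 2 at 74.4% and replicate 3 at 24.1%). H3K27ac and H3K4me3 with no further mark were found at 2327 places (1379 without replicate 3), of which 44.1% had Ser5P in 1 of its libraries. The pair with H3K4me1 as the only further mark had 1004 places, 2005 without replicate 2 and 1746 without replicate 3.

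H3K4me3, H3K27ac and Ser5P regions ranked highest in the active promoter combination, somewhat higher without H3K4me1 than with it. With H3K4me1 the median ranks in replicates 1 and 2 were 74.7 and 74.9 for H3K4me3, 83.6 and 79.2 for H3K27ac and 76.4 and 78.9 for Ser5P. These medians are over regions, and the form with H3K4me1 had more regions per place (H3K4me3 replicate 1, 1.54 against 1.17). The median percentile rank of H3K4me3 regions was 81.4 and 78.2 in replicates 1 and 2 at H3K27ac + H3K4me3 + Ser5P places, and 44.4 and 26.5 where H3K4me3 stood alone. H3K27ac regions had median ranks of 87.7 and 82.3 in the same combination, and 44.2 and 40.0 where H3K27ac stood alone. For Ser5P the ranks were 81.2 and 80.3, against 50.1 and 56.9 alone. Regions of a mark at places without the mark in every library ranked lowest, at 14.5 and 6.83 for H3K4me3, 26.6 and 18.1 for H3K27ac and 23.9 and 26.8 for Ser5P. In each of these 3 marks the values of the combination and of the lone mark did not overlap between libraries.

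**Figure D2:**
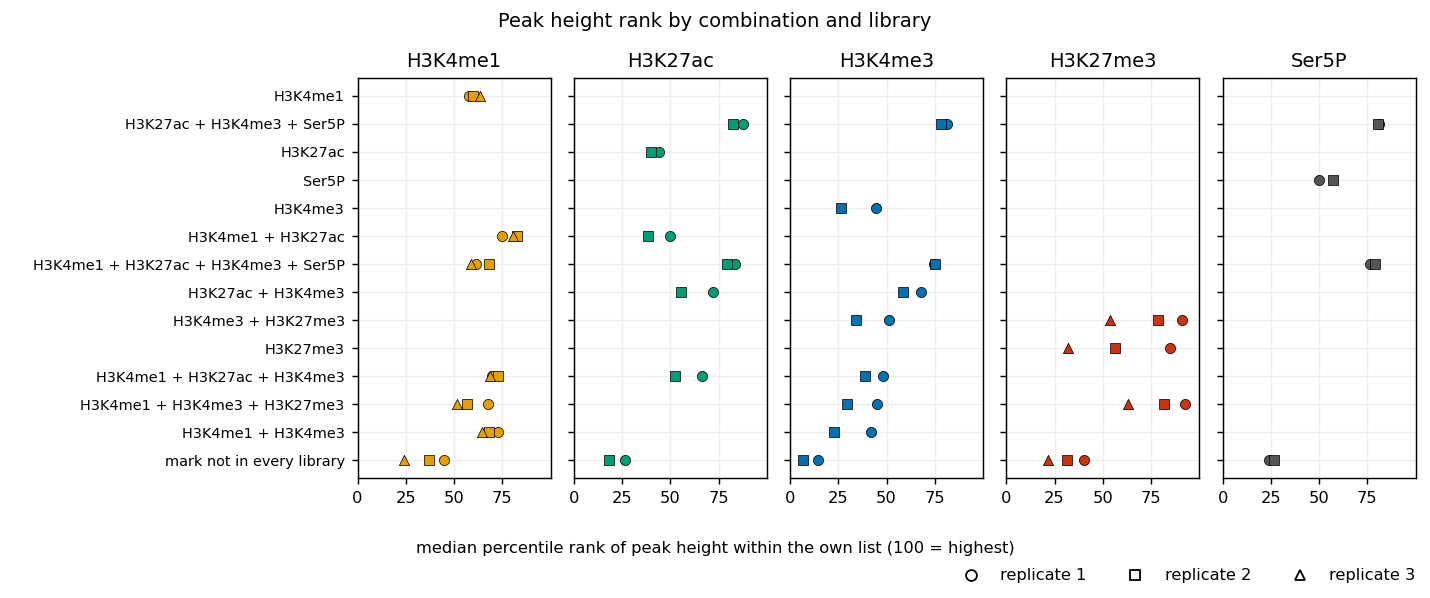
Median percentile rank of peak height within the own list (horizontal axis, 100 highest) for each mark (panels) and combination (rows); each symbol is 1 library, with the replicate given by its shape. H3K4me3, H3K27ac and Ser5P ranked 78.2 to 87.7 at H3K27ac + H3K4me3 + Ser5P places and 74.7 to 83.6 at the same places with H3K4me1, and the bottom row holds regions at places where the mark was not in every library.

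Within active promoter places the marks had an order in space. The highest point of H3K27ac lay a median of 75 and 50 bases from that of H3K4me3 in the replicate 1 and 2 libraries, and that of Ser5P 250 and 150 bases away. The highest point of H3K4me1, at the places that had it, lay 1100 and 1050 bases away. H3K4me1 regions stood on both sides of the H3K4me3 peak at 39.3% and 57.3% of these places. Around the H3K4me3 highest point of all 7047 places, H3K4me1 regions of replicates 1 and 2 covered 16.5% and 3.12% of the places at the point itself. At 800 bases from it, taking both sides of every place, they covered 24.6% and 30.1% of the positions, the maximum of both curves. H3K27ac covered 99.5% and 98.6% at the point, and H3K27me3 0.795% and 0.326%; the presence of H3K27ac and the lack of an H3K27me3 assignment are part of how these places were chosen. Lists give only where regions are called, so these are shares of positions inside a region, not signal levels.

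**Figure D3:**
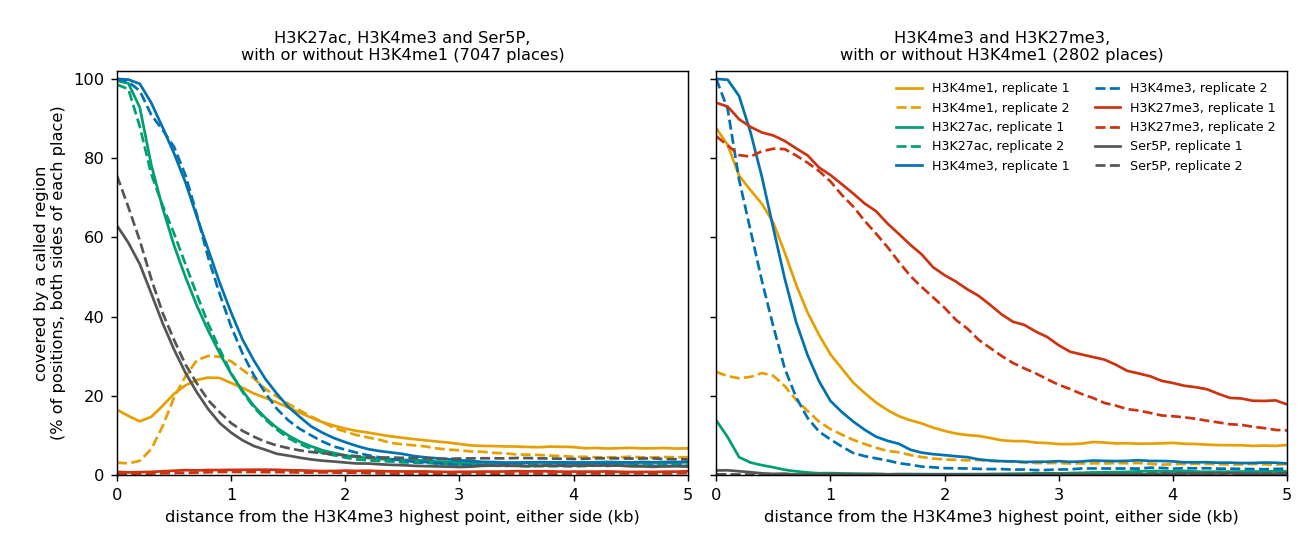
Percent of positions, over both sides of each place, inside a region of each mark (vertical axis) against distance from the highest point of H3K4me3 (kb), in replicates 1 (solid) and 2 (dashed), for H3K27ac + H3K4me3 + Ser5P places and for H3K4me3 + H3K27me3 places, each with or without H3K4me1. The H3K4me1 curves peaked at 800 bases at the first kind of place and at the point itself at the second kind.

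The bivalent combination was H3K4me3 with H3K27me3 and no assignment of H3K27ac or Ser5P. It was found at 2802 places (7.40% of the marked places) with or without H3K4me1, and at 3586 and 3480 places in the replicate 1 and replicate 2 libraries alone. H3K27ac had a region in 1 library at 20.98% of the 2088 places without H3K4me1 and at 26.2% of the 714 with it. Ser5P had one at 6.94% and 12.2%. H3K4me3 was present at 71.7% of the 5118 H3K27me3 places, against 47% of all marked places, and H3K27ac at 14.3%, against 47.1%. The first of these depended on the libraries. With the replicate 1 libraries alone H3K4me3 was at 19.2% of the H3K27me3 places, against 19.6% of all places with a region of those libraries, and with the replicate 2 libraries alone at 43.1%, against 22.7%. H3K27ac was at 8.25%, against 25.6%, with the replicate 1 libraries alone and at 10.97%, against 27.97%, with the replicate 2 libraries alone. Ser5P was present at 9.12% of the 5118 places, against 29.4%. H3K4me1 was assigned to 21.6% of them, against 45% of all marked places, but had a region of at least 1 library at 77.7%, against 81.8%. The 2088 bivalent places without H3K4me1 had a median length of 3675 bases, and the 714 with it 5750 bases. This order also turned round with the libraries, to 452 without and 3134 with H3K4me1 in the replicate 1 libraries alone, 1184 and 2296 in the replicate 2 libraries alone, and 1230 and 2260 with replicate 3 left out. H3K4me1 was called in at least 1 library at 94.8% of the 2088. H3K27me3 ranked 91.2, 78.6 and 53.7 in replicates 1, 2 and 3 at H3K4me3 + H3K27me3 places, and 84.5, 56.5 and 32.1 where H3K27me3 stood alone. It was higher with H3K4me3 in each library, though the libraries overlapped between the combinations. H3K4me3 itself ranked 51.4 and 34.2 at the bivalent places, below its ranks at active promoter places in both libraries.

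At bivalent places H3K27me3 spread widely around the H3K4me3 peak. The highest point of H3K27me3 lay a median of 550 and 550 bases from that of H3K4me3 in replicates 1 and 2. H3K27me3 covered 94.0% and 85.5% of the 2802 places at the H3K4me3 highest point, and 50.5% and 42.2% of the positions at 2000 bases from it. H3K4me1 covered 87.5% of the places at the point in replicate 1 and 26.1% in replicate 2, and both values were the maximum of their own curve. At 500 bases it covered 63.7% in replicate 1 and 25.1% in replicate 2, so the replicate 2 curve was nearly level there. The replicates differed in level at bivalent places and shared the position of the maximum, which lay 800 bases out at active promoters. At the 714 places with H3K4me1 in every library, its highest point lay a median of 575 and 650 bases from that of H3K4me3, and its regions stood on both sides of the H3K4me3 peak at 47.5% and 44.8%. These distances were shorter than the 1100 and 1050 bases at active promoters, while the shares lay between the 39.3% and 57.3% found there. Ser5P covered 1.14% and 0.178% at the point, and the lack of a Ser5P assignment is part of how these places were chosen.

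H3K27ac and H3K27me3 met at 733 places, 727 of them with H3K4me3 and 6 without it. At the level of bases, the regions of all libraries of both marks shared 0.0658 Mb, or 0.737% of the H3K27me3 bases, and had common bases at 176 of the 733 places (24.01%). H3K4me3 and H3K27me3 had common bases at 81.5% of the 3672 places with both, and H3K27ac and H3K4me3 at 98.3% of 11105 places, over 10.9 Mb. H3K4me1 and H3K4me3 had common bases at 64.1% of 5107 places, but over 1.25 Mb, which is 8.19% of the H3K4me1 bases. H3K4me1 and Ser5P had common bases at 17.97% of their 2921 places.

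Places with H3K4me1 and without H3K4me3 fell into a larger group with H3K4me1 alone and a smaller one with H3K27ac in every library. H3K4me1 and H3K27ac, the pair typical of active enhancers, were assigned together and without the other marks at 2883 places (7.62% of the marked places). H3K4me1 alone was found at 8730 (23.1%). Of the 2883, 25.0% had H3K4me3 and 10.9% Ser5P in 1 library, and 68.2% had no region of another mark in any library. Of the 8730, 30.97% had H3K27ac in 1 library, 25.3% in replicate 1 and 5.72% in replicate 2. The acetylated places were longer, with a median of 2200 bases, against 1250 for H3K4me1 alone. A place grows with every region joined to it, and the part this plays in the difference was not tested. H3K4me1 regions ranked 75.04, 82.8 and 80.3 in replicates 1, 2 and 3 at acetylated places, and 57.5, 59.96 and 63.3 where H3K4me1 stood alone, so the libraries did not overlap. H3K27ac regions at H3K4me1 + H3K27ac places ranked 49.6 and 38.7, close to the 44.2 and 40.0 of H3K27ac alone and below the 87.7 and 82.3 of active promoters. The 3565 H3K27ac places without other marks had H3K4me1 in at least 1 library at 69.3%, and a median length of 825 bases. These counts depend on the libraries: H3K4me1 alone numbered 40245 and 31713 with the replicate 1 and replicate 2 libraries alone, and H3K4me1 + H3K27ac 9527 and 5994. Without replicate 3 there were 18874 places of H3K4me1 alone. H3K27ac alone had 7248 places without replicate 1 and 11107 without replicate 2. When only regions with a ratio of target to background of at least 10 were kept, there were 6 places of H3K4me1 alone and 0 of the pair; the median ratio of the H3K4me1 lists was 6.12, 6.06 and 5.62.

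H3K27me3 with no other mark assigned was found at 1383 places of median length 1550 bases. Of these, 22.1% had an H3K4me3 region and 27.2% an H3K4me1 region in at least 1 library. Another place, with H3K4me3 assigned, lay within 10 kb of 62.1% of them. Their median distance to the nearest H3K4me3 place was 4.08 kb, against 20.9 kb for H3K4me3 alone, 31.6 kb for H3K27ac alone and 32.6 kb for H3K4me1 alone. The place next to a lone H3K27me3 place was H3K27me3 alone in 23.3% of cases, against 3.65% of all marked places, and H3K4me3 + H3K27me3 in 18.0%, against 5.52%. The count of lone H3K27me3 places depended on the rule and the libraries. It was 26201 and 6017 with the replicate 1 and replicate 2 libraries alone, 4705 with a mark taken from most of its libraries, 2211 without replicate 2, 4458 without replicate 3 and 584 when regions closer than 1 kb were joined.

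Ser5P without any of the histone marks was found at 3101 places of median length 950 bases, 2739 of them (88.3%) without a region of any library of the other marks. They were clustered along the chromosomes. The nearest other place of Ser5P alone lay a median of 1.0 kb away, and 76.0% lay within 10 kb of one. The median distance to the own kind was 22.1 kb for H3K4me1 alone and 68.1 kb for H3K27ac + H3K4me3 + Ser5P. The next marked place was again Ser5P alone in 58.03% of cases, against 8.19% of all marked places. Runs of 3 or more successive places of Ser5P alone held 59.7% of its places, and the longest run had 68 places over 264 kb, on chromosome 2 from 76536501 to 76800325 (mm9). The 2 libraries differed in the shape of these regions: their median length was 200 bases in replicate 1 with 1.63 regions per place, and 825 bases in replicate 2 with 1.02. The count of such places was 10916 and 12146 with the replicate 1 and replicate 2 libraries alone, and 12547 without replicate 1 and 14241 without replicate 2. The median distance to the same kind was 7.45 kb when regions closer than 1 kb were joined, and 0.6 kb without replicate 1.

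**Figure D4:**
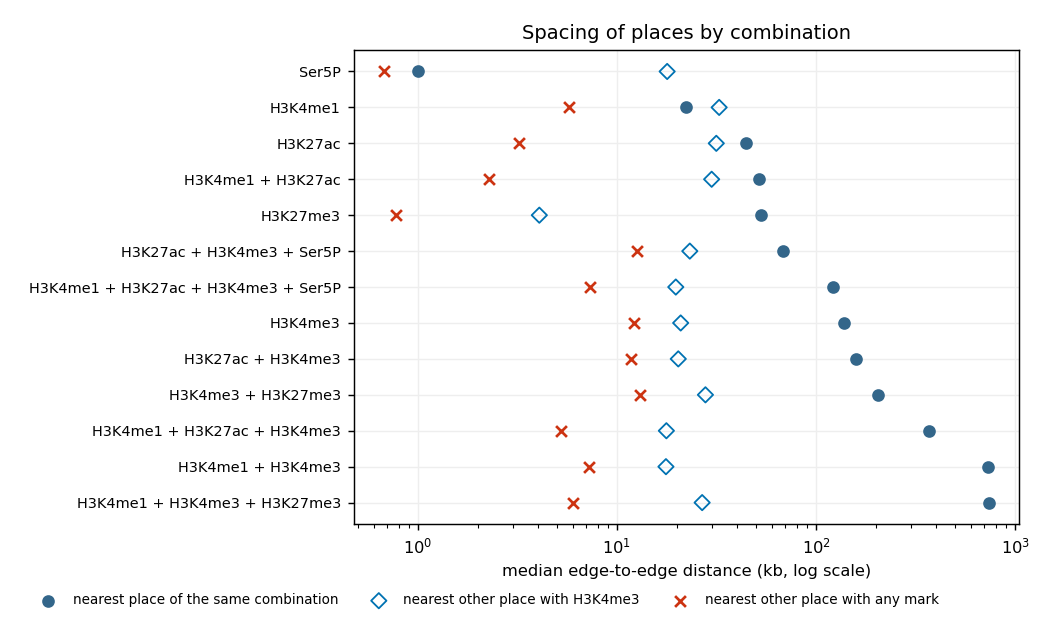
Median edge-to-edge distance (kb, log scale) from a place of each frequent combination to the nearest place of the same combination (filled circles), the nearest other place with H3K4me3 (diamonds) and the nearest other place with any mark (crosses). Ser5P alone had the shortest distance to its own kind (1.0 kb) and H3K27me3 alone the shortest to H3K4me3 (4.08 kb).

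Combinations with few places lay far apart, and the distance between places of a kind depends on their number. The median was 739 kb for H3K4me1 + H3K4me3 + H3K27me3 (714 places) and 733 kb for H3K4me1 + H3K4me3 (574 places, but 1097 without replicate 2 and 1193 without replicate 3). H3K4me3 alone, with 2992 places (5299 without replicate 2 and 1709 without replicate 3), had a median of 138 kb, while H3K27ac alone, with 3565, had 44.6 kb and H3K4me1 + H3K27ac, with 2883, had 51.8 kb. Lone H3K4me3 places were thus farther from their own kind than these combinations without H3K4me3, but this was not particular to them. Other combinations with H3K4me3 had medians of 121 kb (H3K4me1 + H3K27ac + H3K4me3 + Ser5P, 2442 places), 159.5 kb (H3K27ac + H3K4me3, 2327) and 205.6 kb (H3K4me3 + H3K27me3, 2088). Without replicate 1, 2 or 3, the median for H3K4me1 + H3K27ac was 27.2, 30.8 or 31.8 kb, and without replicate 3 that for H3K4me1 alone was 9.58 kb.

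The longest place of any frequent combination carried H3K4me1, H3K4me3 and H3K27me3 and ran over 138450 bases of chromosome 15, from 102735076 to 102873525 (mm9, no annotation used). H3K27me3 regions covered 124525, 138400 and 126725 bases of it in replicates 1, 2 and 3, and the tallest of them ranked 99.97, 99.9 and 99.8 in their lists. H3K4me3 covered 6075 and 850 bases of it in replicates 1 and 2. The second longest place of this combination lay on chromosome 2 from 74491676 to 74554750 (63075 bases), with 54000, 62775 and 56575 bases of H3K27me3. Both were longer than the longest H3K4me3 + H3K27me3 place without H3K4me1, on chromosome 5 from 35717676 to 35749600 (31925 bases). The highest mean rank among H3K4me3 + H3K27me3 places was 96.2, on chromosome 11 from 75002851 to 75010650.

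Places with all 5 marks included very long ones. The longest ran over 108250 bases of chromosome 11, from 96108451 to 96216700, with H3K27me3 over 93525, 91100 and 76800 bases in the 3 replicates and Ser5P over 2950 and 750 bases in replicates 1 and 2. The second ran over 93475 bases of chromosome 6, from 52111726 to 52205200, and there H3K27ac covered 350 and 1350 bases. The remaining 3 of the 5 longest were 34725, 32875 and 28750 bases long, on chromosomes 2, 11 and 13. A call of all 5 marks over places of such length does not put them on the same bases.

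Among active promoter places the longest ran over 55425 bases of chromosome 8, from 124800876 to 124856300, and carried H3K4me1 over 52850, 36050 and 44725 bases. The longest without H3K4me1 in every library lay on chromosome 2 from 155968976 to 156007175 (38200 bases); Ser5P covered 8750 and 36800 bases of it in replicates 1 and 2, and H3K4me3 3950 and 5575. The longest H3K4me1 + H3K27ac place was on chromosome 8 from 123069501 to 123090125 (20625 bases), where H3K4me1 covered 20600, 14850 and 20550 bases and H3K27ac 3450 and 1175. The place of this pair with the highest mean rank (97.2) was on chromosome 5 from 150121226 to 150126125, with H3K4me1 ranks of 99.98, 99.99 and 99.97 and H3K27ac ranks of 92.8 and 93.3.

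Across all libraries, regions at places with other marks were compared with regions at places with the own mark alone. Both kinds had the own mark in every library. The median peak height rank was 70.3 with other marks and 51.3 alone, averaged over the 12 libraries; the difference was 19.01 ± 8.21 points (SD, n = 12) and was positive in 12 of 12 libraries, from 5.24 to 30.5. A two-sided exact sign-flip permutation test gave p = 0.000488, the smallest it allows, and 0.000732 after Benjamini-Hochberg adjustment over 3 measures. The ratio of target to background was higher by 0.38 ± 0.31 on the log2 scale, also in 12 of 12 libraries (exact permutation, adjusted p = 0.000732), though in H3K4me1 by 0.02 ± 0.01 (n = 3). Regions were longer by 0.70 ± 0.65 on the log2 scale in 10 of 12 libraries, with the exceptions H3K4me1 replicate 3 and Ser5P replicate 2 (exact permutation, adjusted p = 0.00537). The length difference was 1.35 without replicate 2. The 12 libraries include several of each mark, so they share targets. The libraries of a mark were then averaged, whatever their replicate number. Over the 5 mark means the differences were 20.2 points, 0.42 and 0.71 for height rank, ratio and length. None passed the threshold, since the smallest p of that exact permutation test is 0.0625. The same lists set which places had other marks and supplied the heights, ratios and lengths, so the tests are not independent of that split. A longer region also has more bases on which a region of another list can fall. The part this plays in the differences of length, height rank and ratio was not tested.

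**Figure D5:**
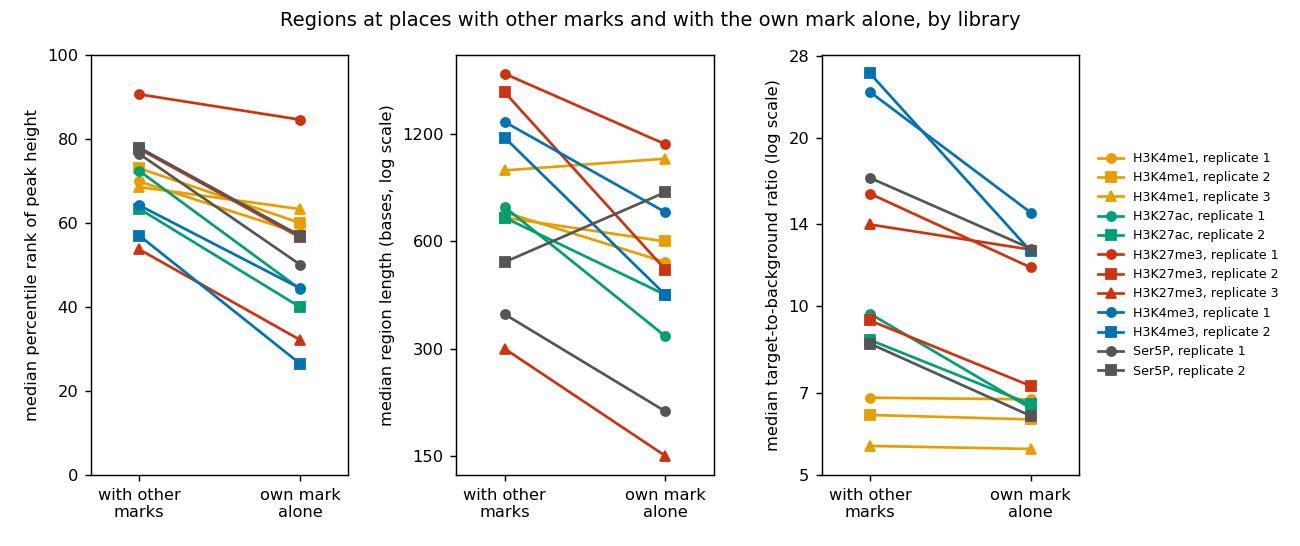
Median peak height rank, region length (bases, log scale) and ratio of target to background (log scale) at places with other marks and with the own mark alone; each line joins the 2 values of 1 library. The height rank and the ratio are higher on the left in all 12 libraries, and the length in 10.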

How the data were processed

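ChIP-seq reads were aligned with Bowtie to mm9, per the submitters' processing notes; the version and the region caller are not given in the sources used here. The authors deposited 1 list of enriched regions per library, and the whole cell extract libraries were not used here. Positions and region lengths were deposited in bases, in steps of 25. The authors deposited a peak height and 2 totals (target and background) per region; these signal values have no stated scale, and no count model was applied. All regions had a target-to-background ratio of at least 5. Sequencing depth is unknown, so no counting interval was given. Values of all libraries were used on chromosomes 1 to 19 and X. Positions are printed from 1, the listed start plus 1.

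Regions overlapping by at least 1 base were joined, and a mark was assigned where every CP library of it had a region. A combination was called frequent from 1% of the marked places. Percentile ranks were computed within a list over all its regions. The places named are, for each frequent combination of several marks, the 2 longest and the one with the highest mean rank, and the 5 longest with all 5 marks. Alternatives covered the rule for assigning a mark, joining of near regions, short or low-ratio regions, list length and left-out replicates. Libraries were tested by exact permutation, and the procedures were tested on simulated data. Computations used pandas 2.3.3, numpy 2.4.6, scipy 1.17.1 and matplotlib 3.10.9 under Python 3.11.15. The members and lists were chosen with earlier results of these data known.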

Additional observations from a re-analysis of the deposited data

Results flagged for a closer look

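Chromosome Y was outside the chromosomes compared. H3K4me3 replicate 1 listed 6 regions there and replicate 2 listed 4, above the limit of 3 set for this flag. No expected count for this chromosome was available, and the difference from the other libraries was not tested. The other 10 CP libraries listed 0 to 3.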

How the results depend on the processing

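Of 145 alternative values, 76 stayed within the limits set for them, 66 moved and 3 no longer passed the threshold. Counts of places, spacings and distances were labelled only as within the limits or moved. The limit was a fixed fold change for counts. For spacings and distances it was the SD of the values from the replicate 1 and replicate 2 libraries alone. That limit is narrow where these values are close, as for the spacing of H3K4me1 alone (4.33 and 5.73 kb, against 22.1 kb with all libraries). The tally therefore depends on the limits. Threshold and direction applied only to the tested differences, those of similarity and of the 3 measures, and none of these turned direction. Settings with fewer libraries also asked for fewer calls per mark. With the replicate 1 or replicate 2 libraries alone, 1 library per mark decided. Without replicate 1 or replicate 2, H3K27ac, H3K4me3 and Ser5P had 1 library each. The part this looser rule plays in the changes was not tested, nor was any other cause. H3K27ac + H3K4me3 + Ser5P and H3K4me3 + H3K27me3 places, both with or without H3K4me1, moved least in number, while their splits by H3K4me1 changed order with the libraries.

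With a mark taken from any library there were 150272 marked places, 57127 of H3K4me1 alone, 11846 of H3K4me1 + H3K27ac and 19868 of Ser5P alone; with a mark in most of its libraries, 23716 and 4376 of the first pair of combinations. Without regions under 500 bases there were 23832 marked places, 5500 of H3K4me1 alone, 1299 of H3K4me1 + H3K27ac, 3453 active promoter places, 1783 bivalent places and 735 of Ser5P alone. With a ratio of at least 10 the counts were 17011 marked places, 6 of H3K4me1 alone, 0 of H3K4me1 + H3K27ac, 2879 active promoter places and 366 of Ser5P alone. Equal numbers of top regions per mark left 4260 places of H3K4me1 alone. Counting segments of shared bases gave 126408 marked, 22574 of H3K4me1 alone, 5330 of H3K4me1 + H3K27ac, 4964 bivalent and 7728 of Ser5P alone. The replicate 1 and replicate 2 libraries alone gave 117607 and 79921 marked places, 40245 and 31713 of H3K4me1 alone, 9527 and 5994 of H3K4me1 + H3K27ac, and 10916 and 12146 of Ser5P alone.

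Median spacing to the same kind with regions closer than 1 kb joined was 38.6 kb for H3K4me1 alone, 91.5 kb for H3K4me1 + H3K27ac, 184 kb for bivalent places and 7.45 kb for Ser5P alone. To the nearest place of any combination it was 5.75 kb, 2.28 kb and 11.5 kb for the first 3 of these and 10.7 kb for active promoters. With the replicate 1 libraries alone it was 4.33 kb for H3K4me1 alone, 14.4 kb for H3K4me1 + H3K27ac, 36.2 kb for active promoters and 91.3 kb for bivalent places; with the replicate 2 libraries alone it was 5.73, 19.7 and 0.6 kb for H3K4me1 alone, H3K4me1 + H3K27ac and Ser5P alone.

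Leaving out 1 replicate number at a time gave 51512 to 65776 marked places, 8154 to 18874 of H3K4me1 alone and 3017 to 14241 of Ser5P alone. Spacing ranged from 9.58 to 26.9 kb for H3K4me1 alone, 27.2 to 31.8 kb for H3K4me1 + H3K27ac, 34.0 to 44.6 kb for active promoters, 119 to 132 kb for bivalent places and 0.6 to 1.02 kb for Ser5P alone. Distances from the H3K4me3 highest point were taken here over all places with both marks, a wider set than the groups above. With all libraries they were 862.5 bases for H3K4me1, 612.5 for H3K27me3 and 212.5 for Ser5P. With 1 replicate number left out they ranged from 600 to 825 bases for H3K4me1, 550 to 587.5 for H3K27me3 and 150 to 225 for Ser5P.

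The labels do not say what a shared replicate number marks. Libraries of the same number were more alike than libraries of different numbers in 10 of 10 pairs of marks, by 0.000201 to 0.0506 in the Jaccard index. With the replicate block, the similarity test had p = 0.000417 (one-sided exact permutation, the smallest it allows). For the 3 measures no replicate block was used, and libraries were averaged by mark instead. Over the 5 mark means the differences were 20.2 points for height rank, 0.71 for log2 length and 0.42 for log2 ratio. The exact permutation p of 0.0625 is then the smallest possible, adjusted or not. By replicate number the mean height rank difference was 18.5, 21.8 and 13.4 points for numbers 1, 2 and 3. Depth is unknown, so what it limits could not be measured.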

Other observations

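Marked places were unevenly spread over the chromosomes. Chromosome X had 5.90 marked places per Mb, while the autosomes had 11.5 to 25.2 per Mb with a median of 15.0, and chromosome 11 had the most. The X was also lowest in each of the 5 groups counted by chromosome. It had 1.19 places of H3K4me1 alone per Mb (autosomes 2.67 to 5.30), 0.228 of H3K4me1 + H3K27ac (0.882 to 1.78), 1.31 active promoter places (1.93 to 4.84), 0.277 bivalent places (0.735 to 1.94) and 0.302 of Ser5P alone (0.686 to 2.62).

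Combinations below 1% of the marked places were led by H3K27ac + H3K4me3 + H3K27me3 (258 places), the same with Ser5P (174) and H3K4me1 + H3K27ac + Ser5P (170). The last of these had a median length of 4387.5 bases and no H3K4me3 call in every library.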
